A study of Saccharomyces cerevisiae with 16 samples.

Results

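The cytosolic ribosomal proteins of budding yeast were followed across the series as 125 genes, chosen by symbol: names that begin with RPL (large subunit), RPS (small subunit) or RPP (the stalk) followed by a number and, for duplicated genes, A or B, with RPS22A and RPS22B left out. The pattern matched 126 of the 5449 budding yeast genes measured. One match, RPP1, encodes a subunit of the RNA-processing enzymes RNase P and MRP and not a ribosomal protein, so it was set apart. The remaining genes comprised 70 of the large subunit, 50 of the small subunit and 5 of the stalk. A further 10 symbols that fit the pattern had no probe set under their own name in the array annotation, among them RPL1A, RPL35B, RPL41B, RPL42A, RPL7B, RPS30B, RPS4A and RPS6A, and were not analysed here. A gene with several probe sets was represented by the one with the highest mean.

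The samples were 8 strains with 2 Affymetrix Yeast Genome 2.0 arrays each (16 in all), from cultures at 30 °C and an optical density of 0.5. Of these, 7 strains carry an aspartate-to-glutamate substitution in a subunit of CCT, the ring-shaped chaperonin that folds actin and tubulin. The substitutions were D96E in CCT1 (MA1), D90E in CCT2 (MA2), D91E in CCT3 (MA3), D117E in CCT5 (MA5), D89E in CCT6 (MA6), D96E in CCT7 (MA7) and D98E in CCT8 (MA8), each marked with KANMX4, and the eighth strain was wild type at CCT (WT). All strains, WT included, carry a CBP tag on CCT6, which is marked with URA3 in MA1, MA2, MA3, MA5, MA7 and MA8. In WT and MA6 the KANMX4 cassette stands at CCT6 and no URA3 marker is listed. The common background has mutations in the vacuolar protease genes (pep4-3, prb1-1122, prc467) and in metabolic genes (gal2, trp1, leu2, leu2-3, ura3-52). Nothing in the labels says that the arrays of a strain came from separate cultures or clones. The p-values thus rest on the spread of these arrays alone, which may be technical in part. That spread also holds differences, given below, between the arrays of each label in the signal of URA3 and CCT6, CCT2 and CCT3, or chromosome X.

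The URA3 marker went against the labels on 6 arrays, namely both of MA6 and MA2 replicate 2, MA5 replicate 1, MA8 replicate 1 and WT replicate 2. Its log2 signal was 7.23 to 8.12 on 4 arrays and 11.70 to 12.05 on the other 12. On the same 4 arrays (MA2 replicate 2, MA5 replicate 1, MA8 replicate 1 and WT replicate 1) the signal of CCT6 was 11.46 to 11.94. The lowest CCT6 signal on the remaining arrays was 12.46, on MA6 replicate 1. The log2 signal of CCT2 was low on the first array of MA1 (10.64) and of MA6 (10.47), where no remaining array was under 12.93. That of CCT3 was low on their second arrays (10.16 and 10.22), with no remaining array under 12.07, so the MA1 arrays differ in CCT genes although their URA3 signal fits the label. A strain name below therefore means the label of an array. On 2 arrays, MA3 replicate 1 and MA7 replicate 2, the genes of chromosome X were raised as a group, which touches the ribosomal proteins encoded there.

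Ribosomal proteins coat and order the ribosomal RNA, and their genes are among the most strongly transcribed in growing yeast. Transcription factors such as Rap1, Fhl1, Ifh1 and Sfp1 drive them as a regulon in step with nutrients. Most are present as paralogs, A and B, left by an ancient duplication of the genome, whose products are nearly identical. The balance between paralogs is set gene by gene, in part through introns and through feedback from the protein on splicing of its own transcript. A microarray shows paralogs apart only where probes fall on letters that differ. In Affymetrix names, a probe set ending in _at matches 1 transcript by design, whereas _s_at and _x_at mark probe sets that match, or cross-match, several. An _at probe set was used for 101 of the 125 genes, _s_at for 20 and _x_at for 4, so the values of the last 24 can hold signal of a paralog.

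The ribosomal protein probe sets lay near the top of the array's scale and moved little. Their mean log2 signals ran between 8.49 and 14.56, with a median of 13.97, where the median over all genes was 10.47 and the brightest gene had 14.93. Of the 115 genes with a mean over 14, 59 (51.3%) were ribosomal proteins. The signal of a probe set depends on its probes as well as on the transcript, so these values place the genes on the scale and do not rank transcripts. The SD over the 16 arrays had a median of 0.063 for ribosomal proteins and 0.137 for all genes. The distance between the lowest and highest array had a median of 0.23, or 1.17-fold, and in 124 of 125 genes it stayed under 2-fold. The large subunit (median SD 0.062), the small subunit (0.064) and the stalk (0.056) hardly differed in this.

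The small spread went with the high signal. Among genes with a mean between 14 and 14.5, the median SD was 0.046 in the 57 ribosomal proteins and 0.065 in the 43 other genes. Between 13.5 and 14 it was 0.072 in 43 ribosomal proteins and 0.076 in 107 others. Between 13 and 13.5 the order was the other way, 0.107 in 15 ribosomal proteins and 0.091 in 168 others, and between 12 and 13 it was 0.129 in 6 ribosomal proteins and 0.114 in 567 others. Thus ribosomal proteins were steadier than other genes of like signal over 14, about as steady between 13.5 and 14, and less so between 12 and 13.5. Some of these values come from _s_at or _x_at probe sets. In the 20 genes with such a probe set beside an _at one, it had a median SD of 0.048 against 0.076 for the _at. The median means were 14.07 and 13.74. The single ribosomal protein with a mean between 10 and 12, RPL15B, had an SD of 0.0835, against a median of 0.128 in 2398 others. The parts that the signal itself and the type of probe set have in these spreads were not tested.

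**Figure D1:**
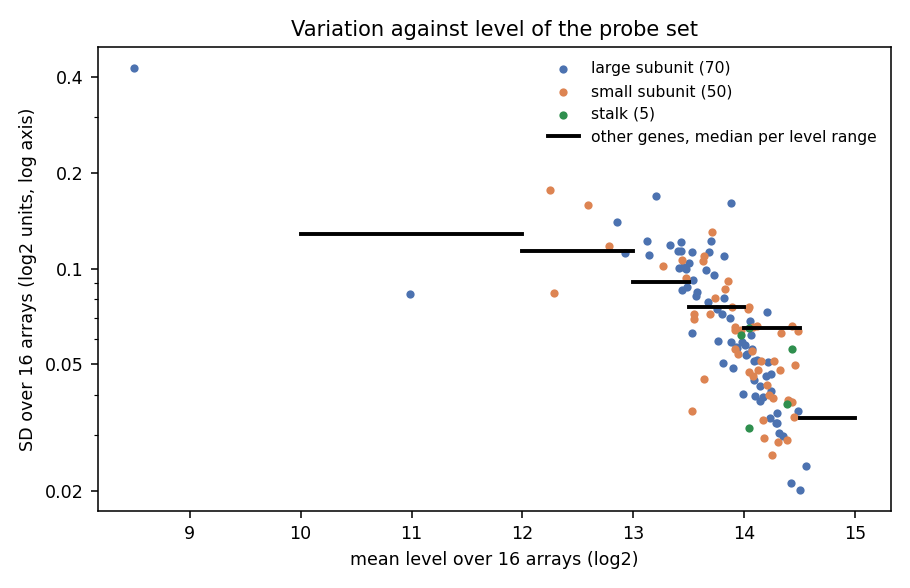
Standard deviation over the 16 arrays (log2 units, log axis) against mean log2 signal for the 125 ribosomal protein probe sets, coloured by subunit, with black bars for the median of all other genes in each range of signal. The spread narrows toward the right, with RPL41A alone at the upper left (mean 8.49, SD 0.43).

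RPL41A, which encodes the very short and basic large-subunit protein eL41, varied most. Its probe set is of type _s_at, the B copy has none of its own, and the value can hold both. Its log2 signals were 8.33 and 8.16 in MA1, 8.06 and 8.09 in MA2, 8.05 and 8.20 in MA3, 9.77 and 8.50 in MA5, 8.41 and 8.67 in MA6, 8.64 and 8.88 in MA7, 8.61 and 8.62 in MA8, and 8.68 and 8.24 in WT. A single array, MA5 replicate 1, stood above all others, 3.28-fold over the lowest. The other MA5 array lay between the WT arrays.

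The next largest SDs belonged to RPS19A (0.177), RPL39 (0.170), RPL29 (0.161), RPS14B (0.159), RPL22B (0.140) and RPS30A (0.131), then to RPL9B, RPL17B and RPL9A (0.122 to 0.123). RPS19 helps mature the small subunit's RNA, RPL39 lines the tunnel through which the new peptide leaves, and RPL29 belongs to the large subunit. At the other end were RPL7A (SD 0.020), RPL10 (0.021), RPL2A (0.024), RPS13 (0.026) and RPS6B (0.028), with means between 14.25 and 14.56. Of these, RPL7A, RPL2A and RPS6B are read by _s_at probe sets, which can hold signal of a paralog. The _at probe set of RPL2A (mean 13.79) had an SD of 0.060. RPL10 is added late, in the cytoplasm, and shapes the site of the peptidyl tRNA, and RPL2 lies close to the catalytic centre. RPL29 shows how a variable member was spread. Its log2 signals were 13.79 and 13.80 in MA1, 13.75 and 13.67 in MA2, 13.66 and 13.73 in MA3, 14.16 and 13.92 in MA5, 13.92 and 13.96 in MA6, 13.96 and 14.10 in MA7, 14.04 and 13.95 in MA8, and 13.99 and 13.64 in WT. The WT arrays lay far apart, and of the mutant arrays only MA5 replicate 1, MA7 replicate 2 and MA8 replicate 1 exceeded the higher of them.

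The stalk binds the elongation factors and consists of RPP0 and dimers of the acidic proteins encoded by RPP1A, RPP1B, RPP2A and RPP2B. RPP0, the stalk base, had 14.44 and 14.52 in MA1, 14.42 and 14.48 in MA2, 14.50 and 14.46 in MA3, 14.45 and 14.38 in MA5, 14.34 and 14.40 in MA6, 14.39 and 14.34 in MA7, 14.39 and 14.38 in MA8, and 14.49 and 14.47 in WT. The WT values lay close together (SD 0.012). In the limma fit given below, RPP0 changed by -0.06 in the mean of the mutants against WT, with an unadjusted p of 0.20. RPP1A and RPP2A had SDs of 0.06 and 0.07 over the arrays, and RPP1B and RPP2B had 0.03 and 0.04.

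None of the ribosomal proteins was called in any strain. limma, fitted to all 5498 probe sets with 1 budding yeast gene, called 0% of probe sets at a Benjamini-Hochberg adjusted p under 0.05 in each of the 7 mutants against WT, in the mean of the mutants against WT and in the F test among the mutants. The smallest adjusted p of a ribosomal protein in that fit was 0.403, in MA6. At an unadjusted p under 0.05 the share of all probe sets called by the fit was 4.13% for MA1, 0.746% for MA2, 4.69% for MA3, 0.327% for MA5, 11.5% for MA6, 8.97% for MA7 and 4.06% for MA8. Of the 125 ribosomal proteins it called 1 in MA1 and 1 in MA3 (both lower), 2 in MA7 (1 higher and 1 lower), 1 in MA8 (higher) and 0 in the other mutants. In the mean of the mutants it called 4.69% of all probe sets and 0 ribosomal proteins, and in the F test 2.67% of all and 3 ribosomal proteins (RPL19A, RPL29 and RPS10A). In none of these comparisons did the share of ribosomal proteins exceed that of the array at large, and in the F test it was about the same (2.4%). With 2 arrays against 2, an exact permutation test of a single gene cannot give a two-sided p below 0.333.

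The median log2 change of the 125 genes was -0.016 for MA1, -0.018 for MA2, -0.027 for MA3, 0.051 for MA5, -0.008 for MA6, 0.004 for MA7 and 0.046 for MA8. The medians over all probe sets were -0.012, -0.016, -0.054, -0.0002, -0.0007, -0.029 and -0.013 in the same order. MA5 and MA8 stood out in the number of genes on 1 side, since 114 and 99 of the 125 lay above WT, while 49.9% and 46.6% of all probe sets did. On the other side, only 31 of the 125 lay above WT in MA2 and 38 in MA3, where 44.9% and 35.8% of all probe sets did. These are shared shifts of a few hundredths of a log2 unit. They hang on single arrays: without WT replicate 1 the median was above 0 in each of the 7 mutants (0.023 to 0.105), and without WT replicate 2 it was between -0.079 and 0.006. The 2 WT arrays differ in URA3 (the second opposes its label), and without the 6 arrays that oppose their label the medians were -0.065 for MA1, -0.083 for MA2, -0.079 for MA3, -0.040 for MA5, -0.036 for MA7 and -0.026 for MA8. WT, MA2, MA5 and MA8 are then 1 array each, and MA6 has none.

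The members that led the fit in each mutant had small changes. In MA1, RPS17B, of the small subunit's head, had 13.82 and 13.78, against 14.03 and 13.91 in WT, a change of -0.17 ± 0.07 (SE). It was also among the 2 leading genes in MA3 (13.85 and 13.79, change -0.15) and in MA6 (13.81 and 13.83, change -0.15). Without WT replicate 1 these changes were -0.11, -0.088 and -0.091. RPS17B was named for its large t, so its distance from WT follows in part from that choice. A second RPS17B probe set, of type _s_at, was not lower as a whole in these mutants. It had 12.856 and 13.152 in MA1, 12.999 and 12.937 in MA3 and 12.896 and 13.063 in MA6, against 12.959 and 12.761 in WT. The correlation of the 2 RPS17B probe sets over the 16 arrays was 0.003.

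RPS8B, a small-subunit body protein, had 14.30 and 14.31 in MA3, against 14.52 and 14.44 in WT (change -0.17 ± 0.06, SE). It also led in MA2, with 14.36 and 14.39 (change -0.10). RPL23A, whose protein forms a bridge between the subunits, had 13.98 and 13.98 in MA1 and 14.02 and 14.01 in MA2, against 14.20 and 14.03 in WT, with changes of -0.14 and -0.10. These WT pairs differed more within themselves than the mutant pairs did. Without WT replicate 1, RPL23A changed by -0.053 in MA1 and -0.020 in MA2, and RPS8B by -0.058 in MA2. In MA6, RPS2, which lies near the entry of the mRNA channel, had 14.14 and 14.20, against 14.37 and 14.26 in WT (change -0.14 ± 0.06, SE), which became -0.085 without WT replicate 1.

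Higher values led in MA5 and MA8. RPL41A in MA5 had a change of 0.67 ± 0.32 (SE), which came from 1 array: it was 0.04 without MA5 replicate 1. RPS10A, a protein of the small subunit's beak read by an _x_at probe set, had 13.84 and 13.69 in MA5, against 13.66 and 13.57 in WT (change 0.15). That change was 0.076 without MA5 replicate 1. In MA8, RPL19A, a bridge protein of the large subunit, had 13.70 and 13.60, against 13.53 and 13.42 in WT (change 0.18 ± 0.08, SE), and RPL15B had 11.11 and 11.10, against 10.84 and 11.01 in WT (change 0.18). RPL15B's change was 0.098 without WT replicate 1. Without the 6 arrays that oppose their label, RPS10A changed by 0.03 in MA5 and RPL19A by 0.07 in MA8. In MA7, RPL39 had 13.21 and 13.65, against 13.18 and 12.96 in WT, a change of 0.36 ± 0.14 (SE) that became 0.14 without MA7 replicate 2. RPL39 is on chromosome X, and that array is one of those with chromosome X raised. RPL8A, of the large subunit, had 14.11 and 14.07 in MA7, against 14.35 and 14.21 in WT (change -0.19 ± 0.07, SE), or -0.12 without WT replicate 1.

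Most of the variation lay between arrays that share a label. The SD within labels was above the SD of the strain means in 102 of 125 ribosomal proteins (81.6%) and in 86.5% of all genes, where a mean of 2 arrays is by construction less variable than 1 array. The root-mean-square difference over the ribosomal proteins had a median of 0.1005 log2 between the 8 pairs of arrays with the same label and 0.1004 between the 112 other pairs. By correlation over the ribosomal proteins, only the MA2 arrays had the other array of their label as the nearest (0.67).

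The arrays themselves did differ, and the ribosomal proteins moved on them together. As deviations from each gene's median over the 16 arrays, the median of the 125 genes was -0.060 and 0.014 in MA1, -0.023 and -0.014 in MA2, -0.050 and -0.015 in MA3, 0.098 and 0.004 in MA5, -0.041 and 0.012 in MA6, -0.009 and 0.025 in MA7, 0.065 and 0.017 in MA8, and 0.041 and -0.047 in WT. MA5 replicate 1, MA8 replicate 1 and WT replicate 1 were the high arrays, MA1 replicate 1, MA3 replicate 1, WT replicate 2 and MA6 replicate 1 the low ones. URA3 signal was low on each of these high arrays (8.12, 7.30 and 8.07). It was also low on MA2 replicate 2 (7.23), where the median was -0.014. Over the 16 arrays URA3 correlated with the median of the ribosomal proteins at -0.59, and a cause was not tested. On MA5 replicate 1, 121 of 125 genes were above their median and 65 had their highest value. A further 31 peaked on MA8 replicate 1. The lowest value fell on MA3 replicate 1 in 32 genes, on MA6 replicate 1 in 28, on MA1 replicate 1 in 23 and on WT replicate 2 in 19. On WT replicate 2 only 9 of 125 ribosomal proteins were above their median, where 62.6% of all genes were.

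**Figure D2:**
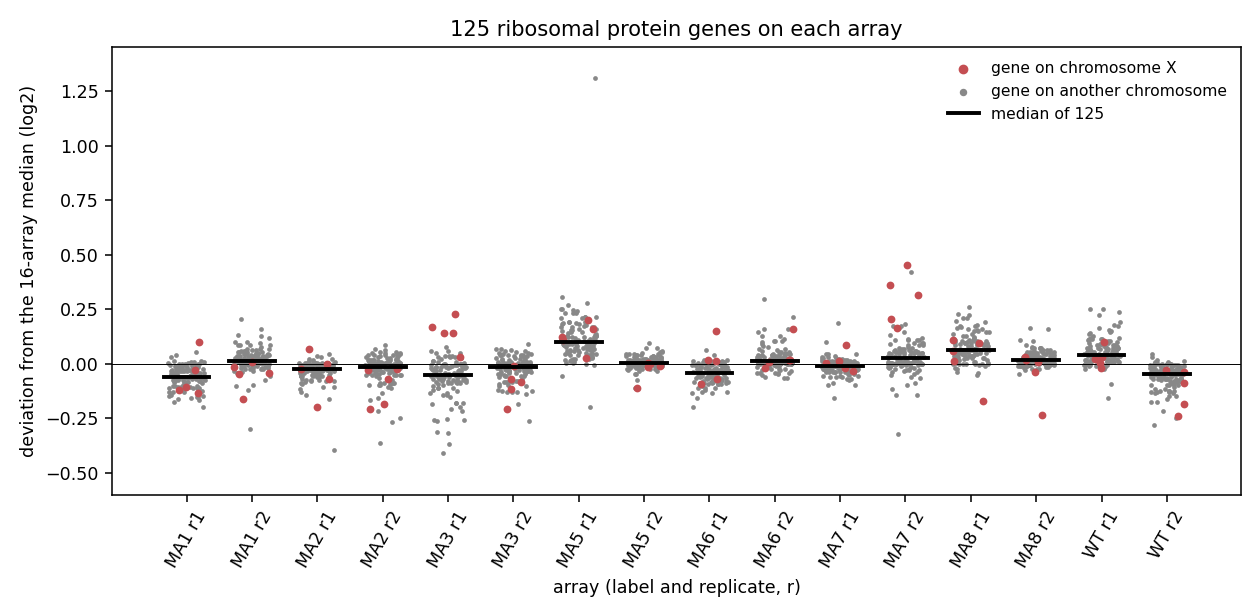
Deviation of each of the 125 ribosomal protein genes from its 16-array median (log2) on each array, with a black bar for the median of the 125 and red points for the 5 genes on chromosome X. The bar is highest on MA5 replicate 1 (0.098) and lowest on MA1 replicate 1 (-0.060), the top point is RPL41A, and on MA7 replicate 2 and MA3 replicate 1 most red points stand above the bar (RPL39, at 0.03 on MA3 replicate 1, is close to the rest).

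Across the 16 arrays, each gene was correlated with the median of the other ribosomal proteins, as a description over arrays that share strains. The median Pearson correlation was 0.78, with 104 of 125 genes over 0.5 and 51 over 0.8. Without WT replicate 1 and MA5 replicate 1 the median was 0.70. Between single pairs of ribosomal proteins the median was 0.56, against 0.022 between pairs of all genes and 0.021 among the 331 other genes with a mean over 13. The large and small subunits moved as one, with a correlation of 0.60 within the large subunit, 0.53 within the small subunit and 0.56 across them. RPL38 (0.96), RPS24B (0.96), RPL31B (0.94), RPS24A (0.93), RPL6B (0.93) and RPL36A (0.93) followed the group most closely. RPS24A and RPS24B are paralogs on different chromosomes and both were among these 6. The RPS24A probe set is of type _s_at, so its values can hold RPS24B signal.

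Some members went their own way. The lowest correlations were those of RPL15B (-0.24), RPL10 (-0.12), RPP0 (-0.12), RPS14B (0.005), RPS21B (0.08) and RPL4A (0.12). RPL10 and RPL4A hardly varied at all (SD 0.021 and 0.036), and the RPL4A probe set is of type _s_at. RPL15B, the B copy of a protein deep in the large subunit, had 11.050 and 11.004 in MA1, 10.958 and 10.958 in MA2, 10.925 and 10.976 in MA3, 10.797 and 11.013 in MA5, 10.976 and 11.050 in MA6, 10.989 and 11.044 in MA7, 11.112 and 11.100 in MA8, and 10.840 and 11.008 in WT. It was lowest on MA5 replicate 1 and WT replicate 1, where most ribosomal proteins were high. Without these 2 arrays its correlation was 0.65.

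The paralogs could be followed apart in 49 pairs, in which A and B have a probe set each, 35 of them with _at probe sets only and 14 with at least 1 of a shared type. In 9 further pairs just 1 copy is named, always on an _s_at probe set (among them RPL1B, RPL35A, RPL41A, RPL42B, RPL7A, RPS30A, RPS4B and RPS6B), so that no balance can be given. Because different probe sets are not on a common scale, the balance was taken as log2 A minus log2 B on each array, relative to the pair's median over the 16 arrays. A positive value means that A was high relative to B compared with the other arrays. It says nothing of which copy gives more RNA.

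The balance was steady in most pairs. Its SD over the arrays had a median of 0.064, and the distance between the lowest and highest array had a median of 0.22, or 1.17-fold. A and B correlated over the arrays with a median of 0.64, with 36 of 49 pairs over 0.5 and 4 under 0. The steadiest pairs were RPL24 (SD 0.030), RPS24 (0.032), RPS0 (0.034) and RPL16 (0.038). RPS24A is read there by an _s_at probe set. With its _at probe set the SD of RPS24 was 0.050, and A and B correlated at 0.62, in place of 0.87. The pairs that shifted most were RPS19 (0.186), RPS14 (0.170), RPL9 (0.161), RPL22 (0.148), RPS9 (0.120), RPL4 (0.116), RPL15 (0.115) and RPL17 (0.111). In each of these 8 the copy with the dimmer probe set had the larger SD, as it did in 37 of all 49 pairs. With own _at probe sets wherever a gene has one, 7 of the 8 stayed among the top 8, and without the arrays with raised chromosome X 5 did. The SD of RPL17 was 0.072 without MA7 replicate 2.

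RPS19 shifted most, by 1.63-fold between its extremes. A minus B was -0.13 and 0.03 in MA1, -0.15 and -0.30 in MA2, -0.38 and -0.14 in MA3, 0.11 and 0.08 in MA5, 0.10 and 0.33 in MA6, 0.05 and 0.16 in MA7, 0.15 and -0.03 in MA8, and -0.03 and -0.21 in WT. Both arrays of MA5, MA6 and MA7 were above both WT arrays, and those of MA8 too but by little on replicate 2. Of the 49 pairs, such an order was seen in 8 for MA5, 11 for MA6, 11 for MA7 and 15 for MA8. The RPS19 balance was lowest on MA3 replicate 1. The shift came from RPS19A (SD 0.177), while the RPS19B probe set, of type _s_at, varied with an SD of 0.046. RPS19 was unlike most pairs in that its strain means (SD 0.170) spread more than the arrays within a label (SD 0.121). With RPS19B read by its _at probe set the SD of the balance was 0.129, behind RPS14, RPL9 and RPL22, and A and B correlated at 0.71, in place of -0.07.

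RPS14, a protein of the platform of the small subunit that is known to hold back expression of RPS14B through that gene's own transcript, had a balance that took either sign within a label. A minus B was -0.17 and 0.17 in MA1, -0.10 and 0.19 in MA2, -0.17 and 0.20 in MA3, -0.14 and 0.11 in MA5, -0.20 and 0.01 in MA6, -0.16 and -0.19 in MA7, 0.26 and 0.22 in MA8, and -0.01 and 0.13 in WT. In MA1, MA2, MA3, MA5, MA6 and WT the arrays of 1 label were on opposite sides of the median. MA8 was above WT on both arrays and MA7 below it on both. Of the 49 pairs, 15 were above WT in this way in MA8 and 8 were below it in MA7. RPS14B carried the shift, with an SD of 0.159, where RPS14A had 0.043.

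RPL22 and RPS9 shifted on the arrays with raised chromosome X, though neither has a copy on that chromosome. Both have introns, and in both pairs splicing is known to be regulated by the encoded protein or through the intron. For RPL22, A minus B was -0.06 and -0.04 in MA1, 0.01 and -0.08 in MA2, 0.35 and -0.05 in MA3, 0.05 and 0.03 in MA5, -0.07 and -0.01 in MA6, 0.04 and 0.40 in MA7, -0.12 and 0.01 in MA8, and 0.11 and -0.08 in WT. MA3 replicate 1 and MA7 replicate 2 were the highest, through RPL22B, which lies on chromosome VI and had 12.51 and 12.55 there and at least 12.79 on every other array. For RPS9, A minus B was lowest on the same arrays, at -0.27 and -0.23, and -0.19 on MA5 replicate 1, while all others lay between -0.11 and 0.12. RPS9A had 12.50 and 12.64 there, its lowest values.

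RPL9 shifted on 4 arrays. Its A minus B was 0.33 on MA5 replicate 1, 0.30 on MA3 replicate 1, 0.19 on MA7 replicate 2 and 0.32 on WT replicate 1, and between -0.13 and 0.13 on the other 12. The second arrays of MA5, MA3 and WT were at 0.01, -0.03 and -0.10. RPL15 had its highest balance on MA5 replicate 1 (0.34) and WT replicate 1 (0.20) as well, since RPL15B was low there. RPL4, whose long loop reaches into the wall of the exit tunnel, was lowest on MA8 replicate 1 (-0.28) and MA6 replicate 2 (-0.18). It was highest on MA3 replicate 1 (0.17). The RPL4A probe set is of type _s_at, so the A value can hold RPL4B signal.

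**Figure D3:**
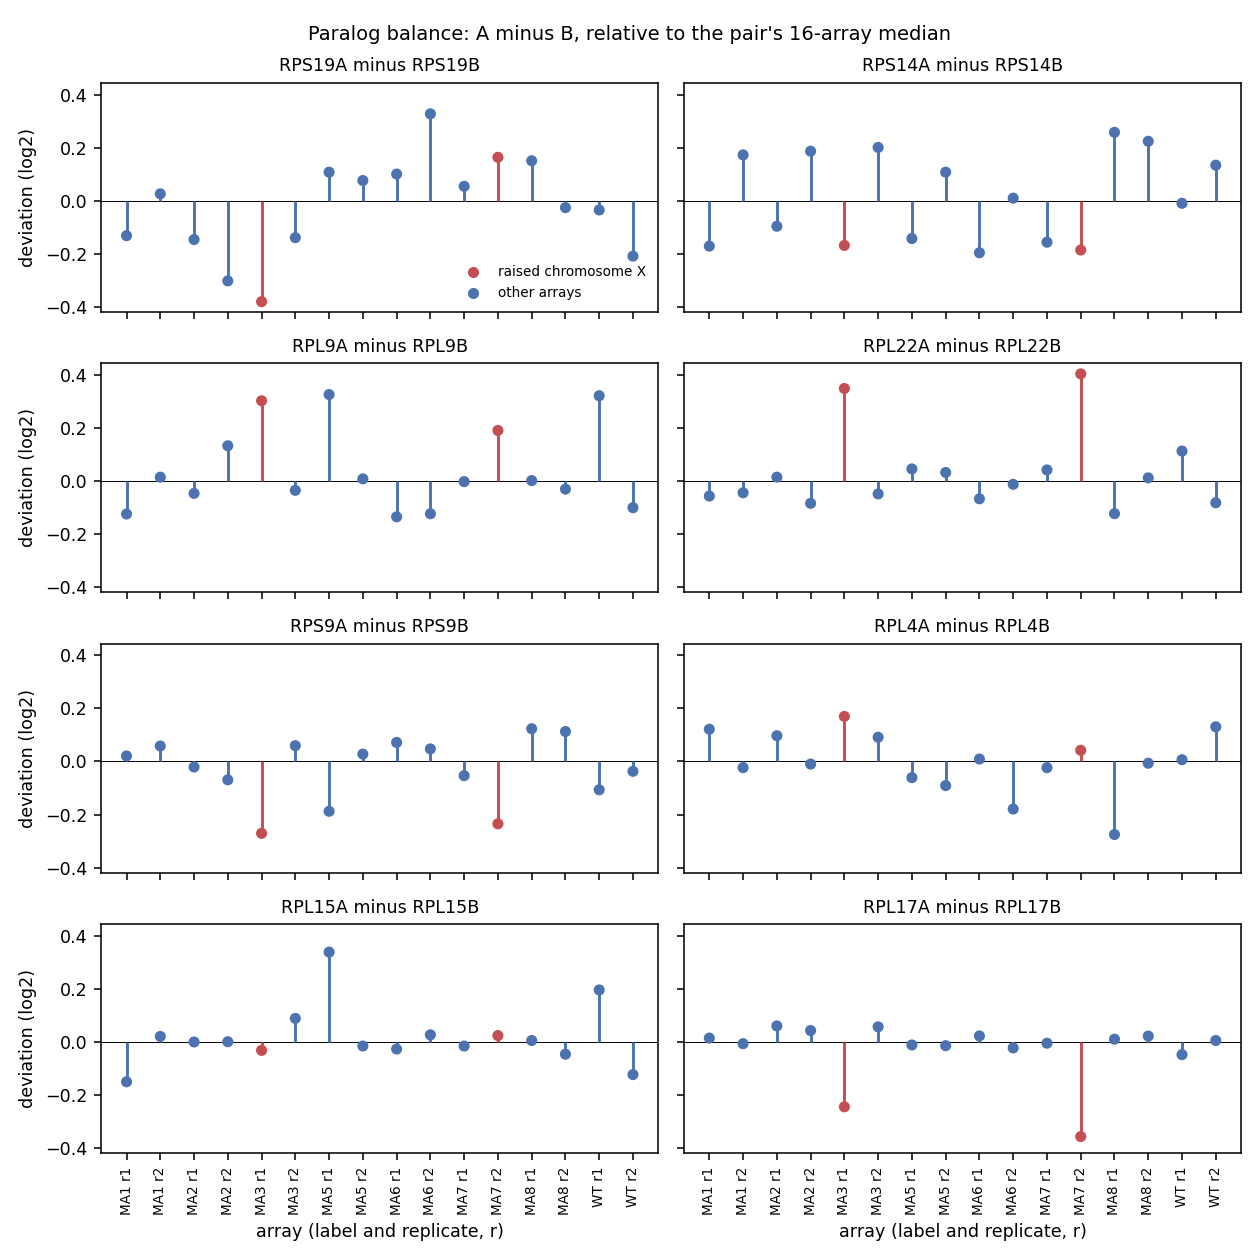
Log2 signal of the A copy minus that of the B copy on each of the 16 arrays, as a deviation from the pair's 16-array median, for the 8 pairs with the largest SD, with red for the arrays with raised chromosome X. RPL17 and RPS9 are low and RPL22 is high on both red arrays (RPL22 at 0.35 and 0.40), while RPS14 changes sign between arrays of 1 label.

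Chromosome X carries 5 of the ribosomal proteins: RPL17B, near the exit of the tunnel, RPL39, RPL43B of the large subunit, and RPS14B and RPS21B of the small subunit. The median deviation of all 316 chromosome X genes was 0.72 on MA3 replicate 1 and 0.77 on MA7 replicate 2. That of the 5 ribosomal proteins was 0.14 and 0.32, and that of the other 120 was -0.05 and 0.02. The ribosomal proteins thus stood less far above their own medians than the chromosome as a whole. Over chromosome X genes with a mean above 8 the deviation fell with signal, at 0.81 and 0.85 for means of 8 to 10, 0.72 and 0.78 for 11 to 12, 0.58 and 0.63 for 12 to 13, 0.37 and 0.40 for 13 to 14, and 0.16 and 0.17 for the 4 genes over 14. The 22 genes with means up to 8 had 0.38 and 0.13. The upper ranges are those in which the 5 ribosomal proteins lie, at means of 12.59 to 14.49.

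RPL17B showed it most plainly, with log2 signals of 13.89 on MA3 replicate 1 and 14.03 on MA7 replicate 2 and none over 13.78 on the other 14 arrays. RPL43B had 13.96 and 14.11 there, with the next highest at 13.92 on MA5 replicate 1. RPS21B had 14.63 and 14.65, with the others between 14.40 and 14.51. RPL39 had 13.23 and 13.65, of which only the second stood out. RPS14B had 12.75 and 12.81, values that MA5 replicate 1 and MA6 replicate 1 also reached (12.81 and 12.76).

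The 4 pairs with a copy on chromosome X all have it as B, and the balance moved toward B on both arrays. A minus B was -0.24 and -0.36 for RPL17, -0.19 and -0.29 for RPL43, -0.31 and -0.15 for RPS21 and -0.17 and -0.19 for RPS14. RPS14 was as low on arrays where chromosome X was not raised (-0.20 on MA6 replicate 1, -0.17 on MA1 replicate 1 and -0.16 on MA7 replicate 1). On the other 14 arrays the lowest value of RPL17, RPL43 or RPS21 was -0.10, for RPL43 on MA8 replicate 1. The A copies lie on chromosomes XI, XVI, XI and III. RPL17A had 14.07 and 14.09 (14.14 and 14.05 in WT) and RPL43A 14.28 and 14.33 (14.33 and 14.26 in WT), while RPS21A had 14.32, its lowest, and 14.50 (14.54 and 14.47 in WT). Of the 3 ribosomal proteins of chromosome VI, RPL22B had a deviation of -0.37 and RPL29 of -0.26 on MA3 replicate 1, whereas RPL2A had -0.02 and did not leave the others. All measured genes of that chromosome had a median of -0.09 there, and RPL29 was as low on MA2 replicate 2 (-0.25) and WT replicate 2 (-0.28). RPS22B, outside the group by the rule, had deviations of -3.87 and -3.71 on these arrays, a drop with no counterpart among the 125.

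**Figure D4:**
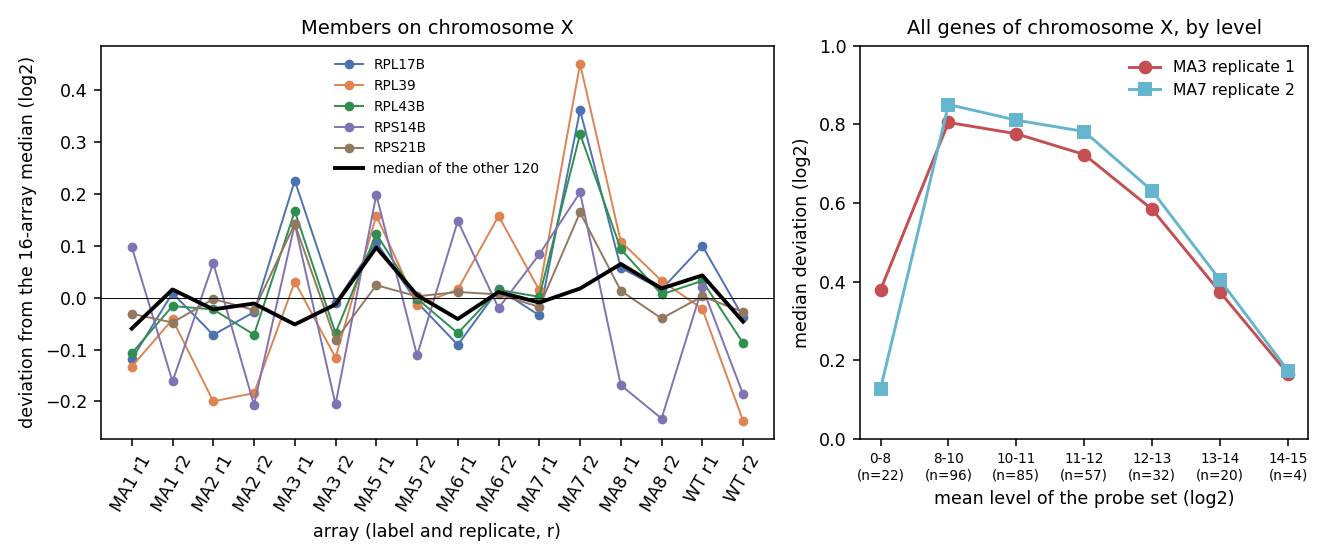
Left, deviation from the 16-array median (log2) of the 5 ribosomal protein genes on chromosome X, with the median of the other 120 in black; right, median deviation of all chromosome X genes on the 2 raised arrays, by mean log2 signal, with the number of genes. RPL17B and RPL43B stand above the black line on both arrays, and the right panel falls from 0.81 and 0.85 at means of 8 to 10 to 0.16 and 0.17 over 14, with lower values again up to 8.

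For 20 of the ribosomal proteins the array holds a second probe set, an _s_at or _x_at beside an _at, which gives a check of how far the readout depends on the probes. The shared type had the higher mean, and was used, in 15. The _at probe set had the larger SD in 14. RPL18B was the extreme: its _at probe set (mean 12.02) ran between 11.60 on MA3 replicate 1 and 12.48 on MA5 replicate 1, a distance of 0.89, and its _s_at probe set (mean 14.29) over 0.12. Both put MA5 replicate 1 at the top and MA3 replicate 1 at the bottom, and their correlation was 0.79. The pairs of probe sets correlated over the arrays with a median of 0.62, between -0.16 (RPS23A) and 0.95 (RPS10A and RPS29A). For a gene such as RPS23A or RPS17B the choice of probe set therefore decides the pattern. Of the 13 paralog pairs whose probe sets changed when own _at probe sets were taken, 11 had a larger SD of A minus B, such as RPL21 (0.074 in place of 0.046).

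**Figure D5:**
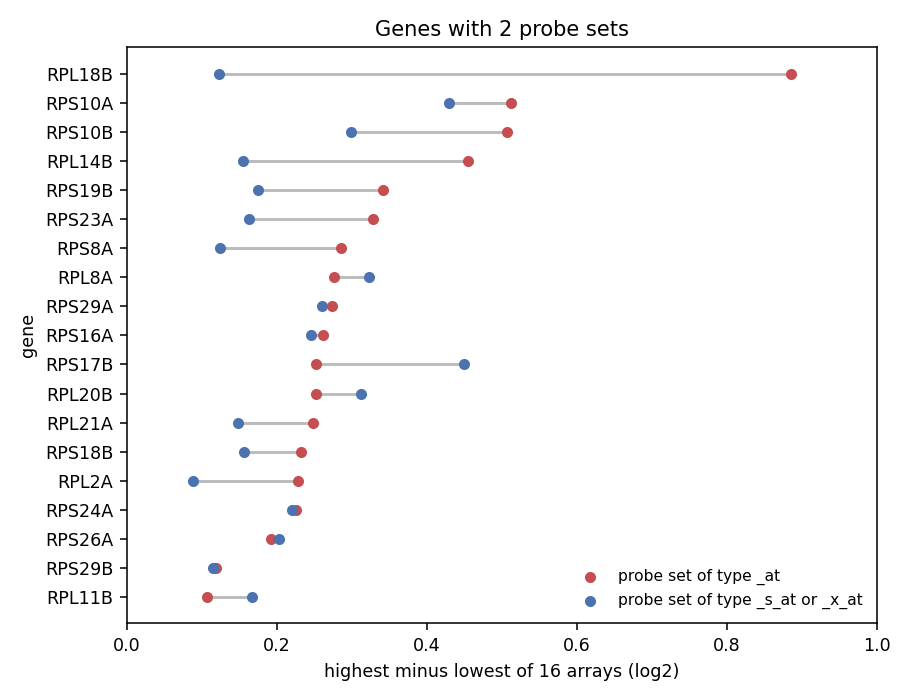
Distance between the highest and lowest of the 16 arrays (log2) for 19 of the 20 ribosomal protein genes with 2 probe sets, red for the _at probe set and blue for the _s_at or _x_at one. RPL18B shows the widest gap (0.89 and 0.12), and RPS17B is the clearest case in the other direction.

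Genes that make or serve ribosomes were read from lists of related factors. No gene of these lists was called by limma at an adjusted p under 0.05 in any mutant, the smallest adjusted p being 0.403. In MA6, where 11.5% of all probe sets had an unadjusted p under 0.05, the fit gave such a p for 4 of 7 chaperones dedicated to single ribosomal proteins, 6 of 20 rRNA processing factors, 3 of 10 regulators, and 0 of 9 ribosome-associated proteins and 0 of 11 translation factors. In MA7 (8.97% of all) it did so for 4 of 10 regulators and in MA3 (4.69% of all) for 3 of 9 ribosome-associated proteins. In the other cases it was at most 2 genes of a list in a mutant. The median log2 change in MA6 was -0.38 for the chaperones and -0.28 for the processing factors. For the ribosomal proteins themselves it was -0.008. Both list medians were below WT in all 7 mutants, between -0.04 and -0.38 for the chaperones and between -0.04 and -0.28 for the processing factors. They hang on WT replicate 1, the array on which the chaperones were highest: without it the medians in MA6 were -0.16 and -0.10, and in MA2 and MA5 both were at or above 0 (0.005 and 0.03 in MA2, 0.15 and 0.15 in MA5).

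The chaperones that hold single ribosomal proteins before assembly varied more than their clients, but at lower signals (means of 9.97 to 12.52). Other genes also vary more there, with a median SD of 0.128 between 10 and 12 and 0.065 between 14 and 14.5. RRB1, the chaperone of RPL3, ran between 12.20 on MA6 replicate 1 and 12.96 on WT replicate 1. ACL4, of RPL4, ran between 11.11 and 11.81, TSR2, of RPS26, between 10.89 and 11.69, and SYO1, of RPL5 and RPL11, between 9.54 and 10.36, all with the same lowest and highest arrays. BCP1, of RPL23, was lowest on MA6 replicate 1 too and highest on MA5 replicate 1. SQT1, of RPL10, and YAR1, of RPS3, varied little (SD 0.064 and 0.047). As a list, the chaperones had median deviations of 0.29 on MA5 replicate 1, -0.29 on MA6 replicate 1 and 0.38 on WT replicate 1, and the 20 rRNA processing factors had 0.32, -0.21 and 0.30 there. The ribosomal proteins had 0.098, -0.041 and 0.041 on these arrays, in the same directions and smaller. On MA8 replicate 1, where the ribosomal proteins were second highest, the chaperones were at 0.05 and the processing factors at 0.03.

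Over the 16 arrays the median of the ribosomal proteins correlated with that of the ribosome-associated proteins, such as the nascent chain factors EGD1 and EGD2, at 0.82 (Spearman 0.83). It did so at 0.71 (0.54) with the rRNA processing factors, 0.66 (0.56) with the translation factors, 0.66 (0.36) with the chaperones and 0.43 (0.36) with the transcriptional regulators. These values describe arrays that share strains and a common normalization. NOP56, a core protein of the RNA-methylating snoRNPs, had the highest single value among the processing factors (0.92). Among the regulators RAP1 (0.57) and HMO1 (0.50) were the highest, IFH1 (0.004) and SFP1 (0.006) were near 0, and the promoter-binding factor STB3 was at -0.47. The transcripts of IFH1 and SFP1 thus did not follow those of the genes they regulate.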

How the data were processed

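The authors deposited log2 expression values per probe set for 16 arrays. Per the submitters' processing notes, RMA and Partek were used (versions not stated). RMA normalizes between arrays, so the deposited log2 values are relative and a change of all transcripts alike would not show. The platform annotation, updated to R64 symbols, gave 5498 probe sets with 1 budding yeast gene. Groups came from the titles. limma 3.58.1 in R 4.3.3 fitted 1 mean per strain to all 16 arrays as deposited (8 residual and 2.02 prior degrees of freedom), two-sided, with Benjamini-Hochberg adjustment over all 5498; calls needed an adjusted p under 0.05. Other values were computed with Python 3.11.15 and pandas 2.3.3. The fit was tested on simulated data.

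The members, lists and tests were chosen with earlier results of these data known. The text names the 10 members with the largest and 5 with the smallest SD, the 8 most and 4 least variable pairs, the 6 members with the highest and 6 with the lowest correlation, the 2 with the largest absolute t in each mutant, the stalk, members of chromosomes whose median left the other members' by over 0.2 log2, and genes of the related lists. Others (RPL18B, RPS23A, the other probe sets of RPS17B, RPL8A, RPL2A and RPS24A, the pairs RPL43, RPS21 and RPL21) were chosen after their values were seen. Alternatives covered normalization, dim probe sets, probe set choice, variance model, a replicate block, fits of 2 strains and leaving out arrays. Over 28 pairs of strains, the deviations of same-numbered arrays correlated between -0.66 and 0.93 (median 0.03), with 7 over 0.1, so the numbers were not taken to pair the arrays. For arrays, their number limits the precision. No sequences or coordinates were used. Some single-gene values are not reported here.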

Additional observations from a re-analysis of the deposited data

How the results depend on the processing

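The counts of probe sets called at an adjusted p under 0.05 were 0 under every alternative but 1, including each array left out and a replicate block (0 calls in each mutant with the block, as without it). The exception, chosen after seeing the data, left out the 6 arrays whose URA3 signal opposes their label: limma then called 1 probe set, URA3 itself, in each of MA1, MA2, MA3, MA5, MA7 and MA8 and in the mean of the mutants. The arrays were left out for their URA3 signal, so this call follows from the choice, and the lone arrays of WT, MA2, MA5 and MA8 are assumed to vary like the other groups. That setting also turned RPL41A in MA5 to a change of -0.18 (0.67 with all arrays); MA5 replicate 1 is among the arrays left out. In all, 375 values of single members kept their direction and 218 values of the paralog balance moved by less than the spread between arrays. Member medians did so in 209 cases and moved in 21, mostly when a WT array was left out. For these medians the spread was 0.043, larger than most of the medians themselves, so the count does not show that their direction was kept. In MA7 the median was 0.004 with all arrays and -0.036 without WT replicate 2. Correlations with the other members moved by less than the spread in 154 cases and by more in 50. RPL15B's correlation ran between -0.48 and 0.19 as arrays were left out in turn. The medians of the chaperone and processing lists, with arrays left out in an alternative chosen after seeing the data, kept within the spread between arrays in 26 cases and moved in 30. Whether signals near the top of the scale limit what the brightest ribosomal proteins show was not tested.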
